A study of Danio rerio with 24 samples.

Results

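A set of 141 genes was followed whose RNA was lowest at lights on in wildtype zebrafish larvae, and their course was examined in klf9-/- larvae. The members were chosen on the deposited regularized log2 values (rlog) of the 12 wildtype samples alone. A gene was kept if its 4 values at lights on all lay below the 8 values from 3 h before and 2.5 h after. Of the 25362 genes with rlog values, 146 met this condition, which is 0.576% of them. The clock genes arntl1a, arntl1b, nfil3, cry3a and cry3b were left out by symbol, and the 141 that remained were fewer than the 150 that the rule allowed, so all were taken. Wildtype values are therefore given as a description, with no test, and each test was made in the klf9-/- samples, which played no part in the choice.

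The larvae were collected at 5 days post-fertilization after growth under a cycle of 14 h light and 10 h dark. Time is given as Zeitgeber time (ZT), the hours from the onset of light in the incubator, and the samples were taken at ZT-3, ZT0 and ZT+2.5. Both genotypes came from AB-strain fish with shared grandparents. The klf9-/- fish were homozygous for a CRISPR-made deletion of 2 bp in the first exon of klf9, which shifts the reading frame to an early stop, and the wildtype fish carried no such deletion. Each genotype and time point had 4 samples, 24 in all, each a pool of 6 whole larvae, so no value belongs to a single animal or tissue. According to the paper, the samples of a time point, of both genotypes, were collected within minutes of each other. The klf9-/- samples thus shared each collection with the wildtype samples that chose the genes. Time and collection cannot be told apart, and the tests measure the spread between pools only.

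Genes of the day and night cycle are timed by a cell-autonomous clock, by light acting directly on cells, and by rhythms of feeding, movement and glucocorticoid hormone. Zebrafish tissues are themselves light sensitive and carry non-visual opsins. Klf9 is a zinc-finger transcription factor, induced by glucocorticoid and timed by the clock, that mostly acts as a repressor. A trough at lights on, with higher levels both before and after, is a course that neither a steady climb nor a steady fall through the dawn would give.

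In klf9-/- most of these genes were also lowest at lights on. In 132 of the 141 members (93.6%), the mean klf9-/- rlog value at ZT0 lay below the mean of ZT-3 and ZT+2.5, against 51.4% of all 25362 genes. For 114 members (80.9%), the ZT0 mean lay below both other means, against 28.0% of all genes. The median difference of ZT0 from the mean of the other times was -0.09 in klf9-/- on the rlog scale (log2) and -0.13 in wildtype, where the rule fixed its sign. Over all genes the klf9-/- median was -0.0016. The rlog transformation draws values with few counts toward the gene's mean, so these differences understate the change of low genes. Since the genes were chosen for their wildtype trough, its greater depth in wildtype is no comparison of the genotypes.

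**Figure D1:**
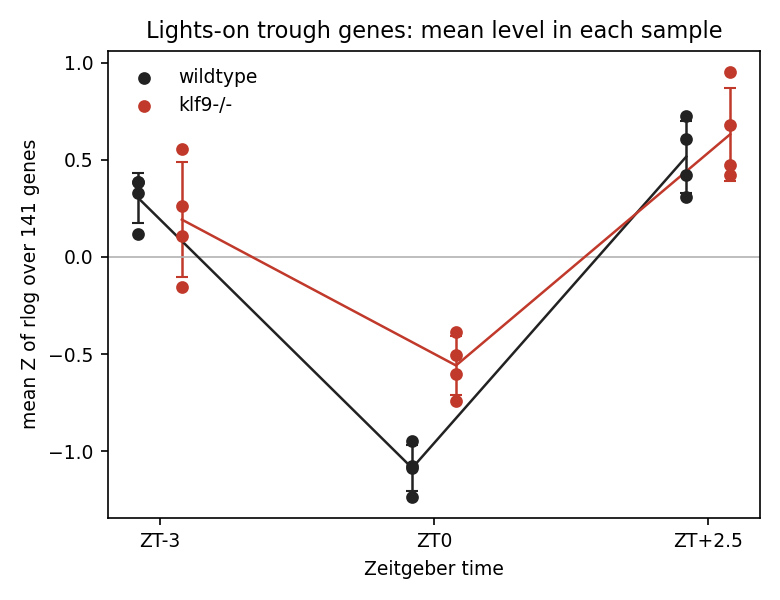
Mean over the 141 genes of the rlog value, Z-transformed by gene over all 24 samples (y axis, SD units), at ZT-3, ZT0 and ZT+2.5 (x axis) in wildtype (black) and klf9-/- (red). Points are samples, lines join the means and bars are the SD of 4 samples. At ZT0 the klf9-/- samples lie between -0.74 and -0.39, below every klf9-/- sample of the other times, and the wildtype samples between -1.23 and -0.95, a position that the choice of genes fixed.

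Each gene's rlog values were Z-transformed and averaged over the members to show the course sample by sample. At ZT0 the klf9-/- means were -0.39, -0.50, -0.60 and -0.74, after -0.15, 0.11, 0.26 and 0.55 at ZT-3 and before 0.95, 0.47, 0.68 and 0.42 at ZT+2.5. The klf9-/- samples of ZT0 thus lay below all 8 others. The wildtype means were -1.23, -1.09, -0.95 and -1.08 at ZT0, after 0.33, 0.39, 0.12 and 0.39 at ZT-3 and before 0.72, 0.61, 0.31 and 0.42 at ZT+2.5. The genotypes overlapped at ZT-3 and ZT+2.5 and did not overlap at ZT0, where klf9-/- was higher. Since genes were kept for low wildtype values at ZT0, that gap is a description and was not tested.

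The klf9-/- rlog value exceeded the wildtype value at ZT0 in 103 of the 141 members, with a median difference of 0.04. At ZT-3 it did so in 61 members, with a median of -0.0074, and at ZT+2.5 in 80, with a median of 0.02. In klf9-/- the median step from ZT-3 to ZT0 was -0.07, against -0.12 in wildtype, and the rise to ZT+2.5 had a median of 0.10, against 0.14 in wildtype. Keeping genes for low wildtype values at ZT0 by itself favours a klf9-/- excess there and smaller klf9-/- steps. These differences between genotypes are therefore a description and were not tested.

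The klf9-/- course was tested with edgeR's quasi-likelihood test on the 12 klf9-/- samples, with the first principal component (PC1) of all 24 samples as a covariate and a call at a Benjamini-Hochberg adjusted p of 0.1 or less over all genes tested. Of the members, 138 passed the filter on low counts, and BX119963.2, CU570976.1 and si:dkey-85k7.11 did not. With DESeq2 in place of edgeR, 60 of these 138 were lower at ZT0 than the mean of the other times (4.29% of all genes) and 0 were higher. With edgeR, 63 of the 138 were lower and 0 were higher, and 0 had a positive difference at an unadjusted p under 0.05. Among all 22602 genes tested, 4.51% were called lower and 5.58% higher. The called differences ran from -0.12 to -1.19 on the log2 scale, with a median of -0.27, and 10 were of 0.5 or more. Of the 75 tested members that were not called, 68 had a negative difference and 7 a positive one. Without klf9-/- ZT0 replicate 4 the count was 38 (2.2% of all genes were then called lower), and without ZT0 replicate 1 it was 40 (3.15% of all genes). It was 35 with PC1 left out of the model (1.71% of all genes).

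Both sides of the trough were then tested apart. From ZT-3 to ZT0, 34 members fell and 0 rose (1, poc1a, at an unadjusted p under 0.05). Of all 22602 genes tested, 6.94% fell and 2179 genes rose. From ZT0 to ZT+2.5, 67 members rose and 0 fell (0 at an unadjusted p under 0.05). Of all 22602 genes, 8.98% rose and 1594 genes fell. Both steps were called in 26 members, the first alone in 8, the second alone in 41 and neither in 63. These patterns were not counted over all genes, so the split is a description of the members only. Among the 63 genes called lower at ZT0, 31 had only the morning rise called, 5 only the fall into ZT0, 26 both and 1 neither. The count for the fall was 16 without PC1 (2.57% of all genes) and the count for the rise 53 (4.65%).

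**Figure D2:**
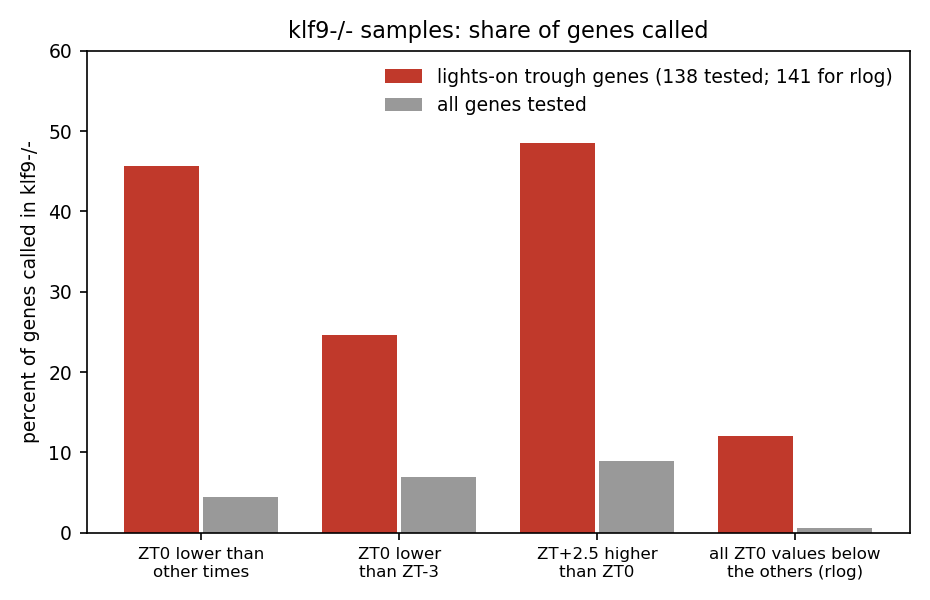
Percent of genes called in the klf9-/- samples (y axis) for the comparisons named on the x axis, in the lights-on trough genes (red) and in all genes tested (grey). The first 3 pairs are edgeR calls at an adjusted p of 0.1 or less, and the last is the share with all 4 ZT0 rlog values below the 8 others. The lights-on trough genes stand at 45.7%, 24.6%, 48.6% and 12.1%, and all genes at 4.51%, 6.94%, 8.98% and 0.603%.

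The strict form of the rule was met by fewer members in klf9-/-. In 17 of the 141 (12.1%), all 4 klf9-/- ZT0 values lay below the 8 other klf9-/- values, which held for 0.603% of all genes. The 4 ZT0 values lay above the 8 others in 0 members and in 1.24% of all genes. Applied to the klf9-/- samples, the rule took 147 genes, and the 17 shared genes made up 11.6% of that list. They were tmx3a, ppp1r27b, mxd3, si:dkey-73n8.3, smtnb, ankrd33ba, si:ch211-135n15.2, bida, ubald1b, spsb3a, xpo1b, fam167aa, ston2, nr3c1, fbxl2, sprtn and wdr26b, and all 17 were among the genes called lower at ZT0. That call used the same 12 klf9-/- samples and the same contrast, so the overlap is no separate support. With PC1 regressed out of the klf9-/- values the count was 31 (1.28% of all genes), without klf9-/- ZT0 replicate 1 it was 29 (1.27%), and without ZT-3 replicate 1 it was 27 (0.844%).

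**Figure D3:**
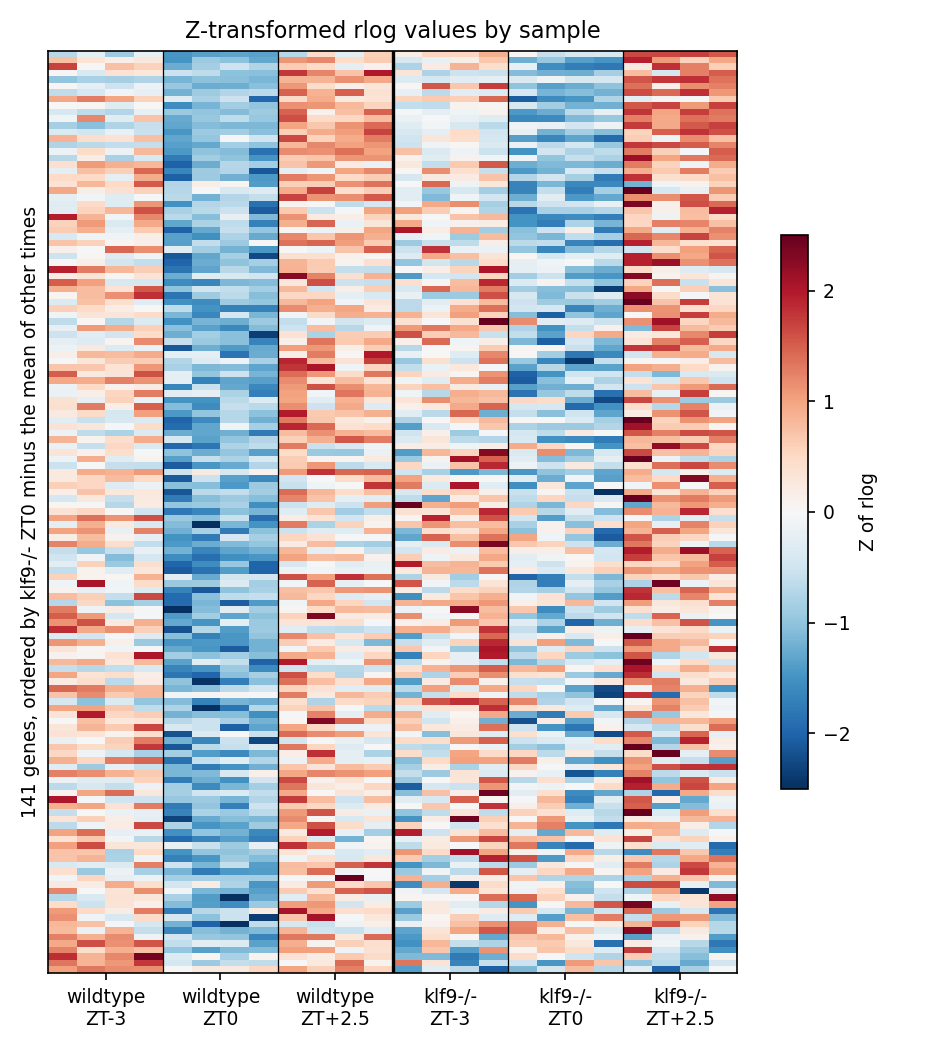
Z-transformed rlog value (colour, SD units from blue below to red above the gene's mean) of the 141 genes (rows) in the 24 samples (columns, 4 per group, replicates 1 to 4 from left to right). Rows are ordered by the klf9-/- difference of ZT0 from the mean of the other times, most negative on top. The blue wildtype ZT0 block was fixed by the rule. The klf9-/- ZT0 block is blue in the upper rows and mixed in the lowest, where 9 genes had a ZT0 mean at or above the mean of the other times.

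PC1 is the axis that the study's methods treat as a technical effect of RNA preparation. Computed anew here from the Z-transformed rlog values of the 24 samples, PC1 held 21.7% of the variance, and the wildtype ZT0 samples had the lowest mean score (-0.46 SD) of the 6 groups, against 0.35 at ZT-3 and -0.33 at ZT+2.5. In klf9-/- the mean scores were 0.27, 0.25 and -0.08. Within time points the members' rlog values had a median correlation with PC1 of 0.21 in wildtype and 0.32 in klf9-/-, against 0.03 and 0.05 over all genes. With PC1 regressed out of the wildtype values, the rule chose 76 of the 141 members again. The rule's top 150 were then drawn from 288 separated genes. Of the 76, 49 were called lower at ZT0 in klf9-/-, against 63 of all 138 tested members and 4.51% of all genes. Without wildtype ZT0 replicate 3 or 4, the rule chose 64 or 80 of the members again.

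The members had low to high expression and were mostly protein-coding. Of the 141 symbols, 130 were matched in NCBI's RefSeq gene table, 128 of them as protein-coding genes, 1 as a long non-coding RNA and 1 as a pseudogene. Levels are given in CPM, a count scaled to the library's total, which depend on transcript length and are compared within a gene only. The median of the tested members was 14.1 CPM over the 24 samples, at the 57.8th percentile of all genes tested. In RefSeq's gene order mxd3 lay next to rnf103, pigh next to zfyve1, and wdr26b next to si:ch211-57i17.1, and none of these pairs overlapped.

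Tmx3a and ppp1r27b were the highest-ranked members by the rule. Tmx3a is a thioredoxin-related protein of the endoplasmic reticulum membrane that handles disulfide bonds. Wildtype tmx3a stood at 17.9, 15.7, 15 and 15.4 CPM at ZT-3, 8.53, 10.4, 9.93 and 9.18 CPM at ZT0, and 20.2, 20.4, 16.4 and 17.3 CPM at ZT+2.5. In klf9-/- tmx3a stood at 12.5, 13.4, 14.8 and 17.4 CPM at ZT-3, 9.39, 10.3, 8.85 and 8.53 CPM at ZT0, and 25.8, 19.7, 17.1 and 19.3 CPM at ZT+2.5. The klf9-/- ZT0 samples were the lowest 4 of the 12, with no overlap, and the genotypes overlapped at every time point. The klf9-/- log2 difference of ZT0 from the other times was -0.92 ± 0.062 (SE), a 1.90-fold lower level (edgeR, adjusted p = 6.62e-07).

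Ppp1r27b is a small regulatory subunit of protein phosphatase 1 and the member with the largest difference. Wildtype ppp1r27b was low, at 1.02, 1.42, 0.886 and 1.46 CPM at ZT-3, 0.474, 0.524, 0.564 and 0.562 CPM at ZT0, and 1.01, 2.16, 1.37 and 2.31 CPM at ZT+2.5. In klf9-/- ppp1r27b was at 1.83, 2.26, 2.27 and 2.73 CPM at ZT-3, 1.68, 1.09, 1.23 and 1.27 CPM at ZT0, and 3.94, 3.94, 4.0 and 3.78 CPM at ZT+2.5. Every klf9-/- ZT0 value lay below the 8 others of its genotype, and the klf9-/- values exceeded all wildtype values at each time point. The klf9-/- trough was -1.19 ± 0.12 (SE) (edgeR, adjusted p = 2.8e-05), made of a fall of -0.77 and a rise of 1.61, all log2.

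Muscle genes among the members included abrab at rank 4 and smtnb at rank 9. Abrab encodes an actin-binding protein of striated muscle, and smtnb encodes a smoothelin, a protein of the contractile cytoskeleton. Wildtype abrab stood at 14, 8.33, 10.5 and 9.93 CPM at ZT-3, 5.46, 6.25, 6.98 and 6.49 CPM at ZT0, and 10.2, 9.56, 7.67 and 8.59 CPM at ZT+2.5. In klf9-/- abrab stood at 6.47, 8.96, 10.9 and 9.53 CPM at ZT-3, 7.8, 4.84, 4.54 and 4.45 CPM at ZT0, and 8.93, 14.4, 12.3 and 10.1 CPM at ZT+2.5. Replicate 1 of klf9-/- ZT0 was far above the other 3 of its group and above replicate 1 of ZT-3, so the klf9-/- groups overlapped there. The log2 difference was -0.94 ± 0.19 (SE) in klf9-/- (edgeR, adjusted p = 0.0109), and it was called in each fit that left out 1 sample.

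Smtnb had a deeper fall before lights on than rise after it. Wildtype smtnb held 33.1, 34.6, 33.4 and 30.7 CPM at ZT-3, 26.3, 24, 25.2 and 19.5 CPM at ZT0, and 30.6, 32.5, 29.1 and 29.6 CPM at ZT+2.5. In klf9-/- smtnb held 30.9, 31.5, 31 and 35.8 CPM at ZT-3, 19.1, 21, 21.4 and 24.4 CPM at ZT0, and 26.6, 28, 28.1 and 31.4 CPM at ZT+2.5. All 4 klf9-/- ZT0 samples were below the other 8. Its fall into ZT0 was -0.59 ± 0.076 (SE) and its rise 0.41 ± 0.077 (SE) on the log2 scale (edgeR, adjusted p = 0.000163 and 0.00255). Six1a and six2a are homeodomain factors, and six1a is known from fast muscle. The klf9-/- difference at ZT0 was -0.21 ± 0.068 (SE) for six1a (adjusted p = 0.0959) and -0.08 ± 0.052 (SE) for six2a (adjusted p = 0.44).

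With ppp1r27b, which was also placed with muscle, this role group held 5 members, and 4 were called lower at ZT0 in klf9-/-. Of all 138 tested members 63 were called lower, and of all genes 4.51%. Role groups were set after the values were seen. A list of 73 genes of skeletal muscle contraction and excitation, none of them a member, had 7 lower and 1 higher of 69 tested, with a median log2 difference of -0.12 and 63 below 0. The summed level of fast muscle markers in klf9-/- was 68258 to 105096 CPM at ZT0, against 71375 to 92273 at ZT-3 and 78294.6 to 88250.0 at ZT+2.5, ranges that overlapped. Its median was lowest at ZT0, at 73505 CPM, against 87873 at ZT-3 and 82024 at ZT+2.5. Of 12 such markers, 1 was called lower and all 12 had a negative difference, with a median of -0.09. The part of muscle content in the members' course was not tested. In whole-larva samples, fewer cells of a type and less RNA per cell cannot be told apart.

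**Figure D4:**
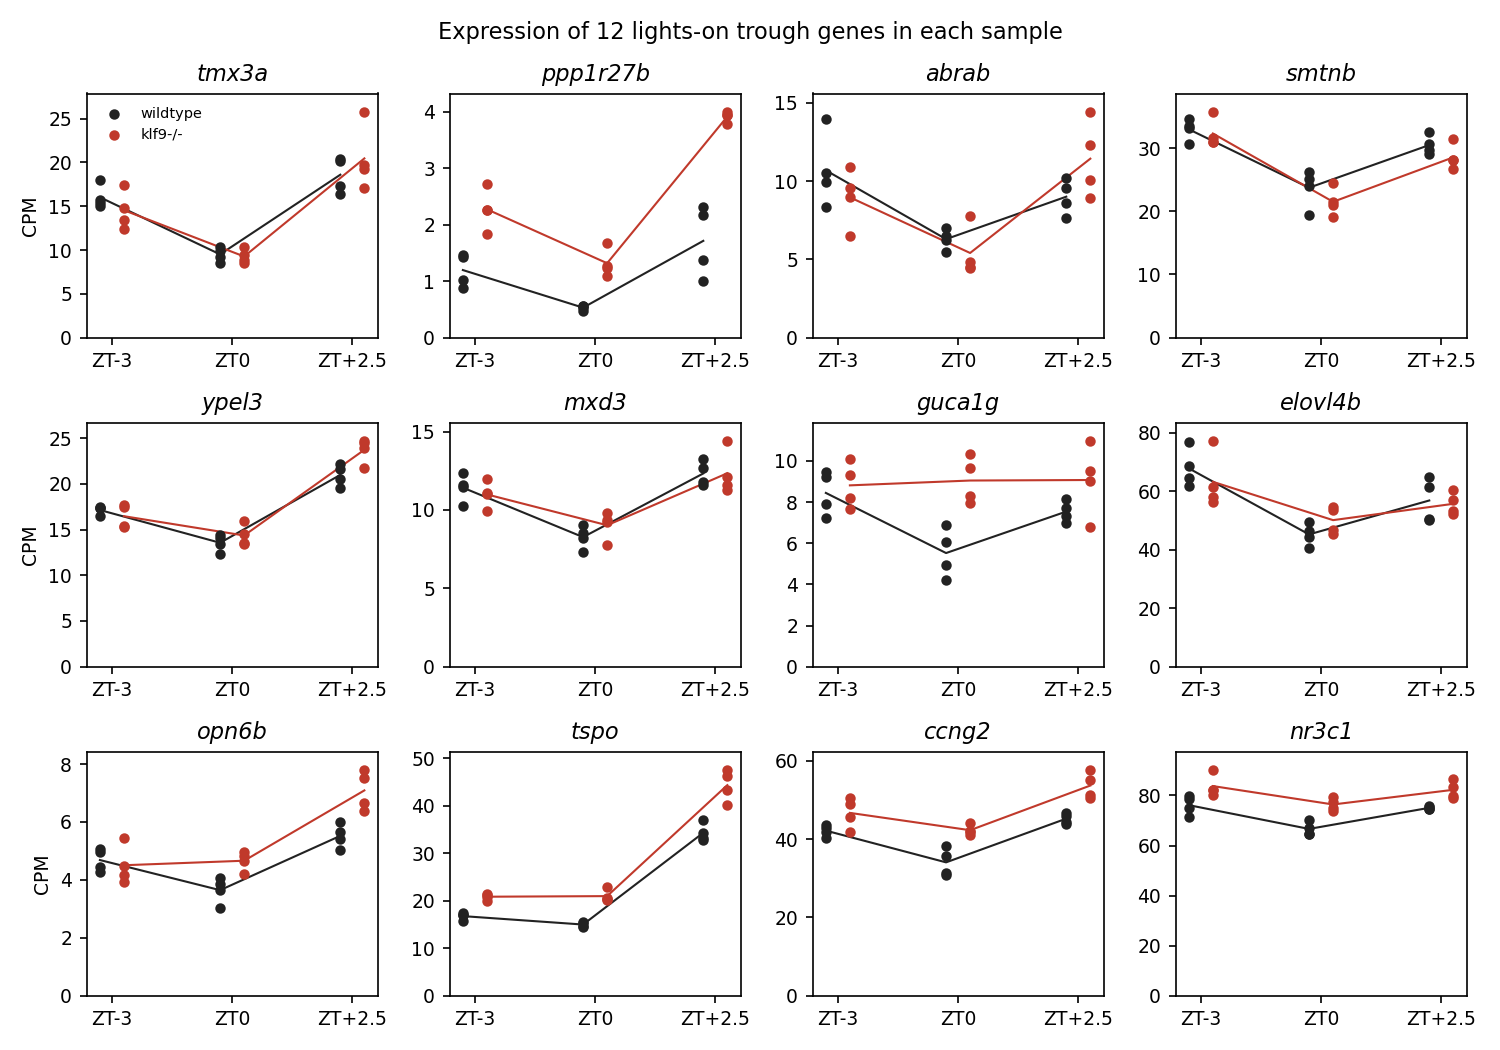
Level in CPM (y axes, from 0) of 12 members in each sample at ZT-3, ZT0 and ZT+2.5 (x axes), wildtype in black and klf9-/- in red, with lines through the means of 4 samples. In tmx3a, ppp1r27b and smtnb all klf9-/- ZT0 points lie below the other klf9-/- points, in tspo and opn6b the klf9-/- points of ZT-3 and ZT0 overlap and ZT+2.5 is higher, and in guca1g the 3 klf9-/- groups overlap.

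Genes of the eye and opsins made up 7 members, and 5 of them were called lower at ZT0 in klf9-/-. That call was made in 63 of the 138 tested members and in 4.51% of all genes. Abca4b encodes a transporter of retinoids in photoreceptor outer segments, and elovl4b an enzyme that elongates the very long fatty acids of the retina. Wildtype abca4b stood at 38.4, 35.4, 28.9 and 28.5 CPM at ZT-3, 23.8, 23.6, 25.5 and 25.8 CPM at ZT0, and 32.1, 38.6, 28.1 and 27.9 CPM at ZT+2.5. In klf9-/- abca4b stood at 32.7, 30.9, 34.4 and 40.3 CPM at ZT-3, 29, 31, 28 and 26.2 CPM at ZT0, and 33.2, 37.3, 28.1 and 32 CPM at ZT+2.5. The klf9-/- groups overlapped. The wildtype ZT0 samples, for whose low values the gene was kept, were below all klf9-/- samples of ZT0. With PC1 in the model the difference was -0.26 ± 0.061 (SE) (edgeR, adjusted p = 0.0194), and without PC1 the adjusted p was 0.219.

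Elovl4b fell into ZT0 in both genotypes. Wildtype elovl4b held 76.8, 68.7, 64.4 and 61.7 CPM at ZT-3, 40.7, 44.5, 49.5 and 46.4 CPM at ZT0, and 65, 61.6, 50.6 and 50.4 CPM at ZT+2.5. In klf9-/- elovl4b held 56.3, 58, 61.5 and 77.4 CPM at ZT-3, 53.7, 54.7, 46.8 and 45.4 CPM at ZT0, and 60.5, 57, 53.2 and 52.3 CPM at ZT+2.5. The klf9-/- ZT0 samples lay below those of ZT-3 and overlapped those of ZT+2.5. The klf9-/- difference at ZT0 was -0.27 ± 0.042 (SE) (edgeR, adjusted p = 0.00128), with an adjusted p of 0.209 without PC1.

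Ankrd33ba, an ankyrin-repeat gene whose mammalian relative is known from photoreceptors, had a trough in klf9-/- too. Wildtype ankrd33ba stood at 6.94, 7.62, 7.51 and 7.38 CPM at ZT-3, 4.61, 5.28, 5.74 and 5.65 CPM at ZT0, and 7.32, 7.64, 6.71 and 6.34 CPM at ZT+2.5. In klf9-/- ankrd33ba stood at 6.81, 5.92, 7.24 and 8.23 CPM at ZT-3, 5.33, 5.42, 5.41 and 5.31 CPM at ZT0, and 7.96, 7.05, 6.44 and 7.55 CPM at ZT+2.5. The 4 klf9-/- ZT0 samples differed little and were the lowest of the 12. The difference was -0.43 ± 0.075 (SE) (edgeR, adjusted p = 0.00298).

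The calcium sensor gene guca1g, whose product activates the guanylate cyclase of photoreceptors, was the only one of the 12 highest-ranked named members that was not called in klf9-/-. Wildtype guca1g stood at 9.46, 9.23, 7.88 and 7.2 CPM at ZT-3, 6.05, 4.94, 4.2 and 6.9 CPM at ZT0, and 7.3, 6.96, 7.72 and 8.17 CPM at ZT+2.5. In klf9-/- guca1g stood at 7.66, 8.2, 9.32 and 10.1 CPM at ZT-3, 10.3, 9.64, 7.93 and 8.29 CPM at ZT0, and 9.53, 11, 9.0 and 6.77 CPM at ZT+2.5. The 3 klf9-/- groups overlapped throughout, and at ZT0 every klf9-/- sample lay above every wildtype sample. The klf9-/- difference at ZT0 was -0.02 ± 0.081 (SE) (edgeR, adjusted p = 0.949). Whether the courses of the genotypes differed was not tested, because the wildtype course was what chose the gene.

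The non-visual opsin gene opn6b rose in the klf9-/- morning without a fall before it. Wildtype opn6b stood at 4.97, 5.05, 4.46 and 4.26 CPM at ZT-3, 3.02, 3.65, 3.85 and 4.05 CPM at ZT0, and 5.98, 5.66, 5.02 and 5.42 CPM at ZT+2.5. In klf9-/- opn6b stood at 3.91, 4.47, 4.18 and 5.45 CPM at ZT-3, 4.66, 4.82, 4.95 and 4.21 CPM at ZT0, and 7.52, 7.81, 6.37 and 6.66 CPM at ZT+2.5. The klf9-/- samples of ZT-3 and ZT0 overlapped and those of ZT+2.5 were all higher. The step into ZT0 was 0.05 ± 0.088 (SE) (edgeR, adjusted p = 0.788) and the step to ZT+2.5 was 0.65 ± 0.086 (SE) (adjusted p = 0.000176). Opn4xb, a melanopsin, had a morning step of 0.66 ± 0.17 (SE) (adjusted p = 0.0227) and a ZT0 difference of -0.42 ± 0.15 (SE) that was not called (adjusted p = 0.12).

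Photoreceptor markers did not move one way in klf9-/-. Of all genes tested, 4.51% were called lower at ZT0 and 5.58% higher. Of 15 markers, none a member, 2 were called lower at ZT0 and 4 higher, and their summed level had a klf9-/- median of 9995 CPM at ZT0, against 9341 at ZT-3 and 9168 at ZT+2.5, with overlapping ranges. In wildtype the ZT0 median was 8589.8 CPM, against 9465 at ZT-3 and 9042 at ZT+2.5. The part of photoreceptor content in these values was not tested.

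Genes of the cell cycle, cell death and DNA repair made up 10 members, and 6 of them were called lower in klf9-/- at ZT0. This was near the count over all members (63 of 138 tested), and 4.51% of all genes were called. Ypel3 encodes a small zinc-binding protein whose human relative slows proliferation, and ccng2 encodes cyclin G2, an unconventional cyclin that goes with cell cycle arrest. Wildtype ypel3 held 17.3, 17.4, 16.4 and 17.3 CPM at ZT-3, 12.3, 13.5, 14.4 and 14.1 CPM at ZT0, and 22.2, 21.6, 20.6 and 19.5 CPM at ZT+2.5. In klf9-/- ypel3 held 15.3, 15.3, 17.7 and 17.5 CPM at ZT-3, 16, 14.5, 13.5 and 13.4 CPM at ZT0, and 23.9, 24.5, 21.8 and 24.7 CPM at ZT+2.5. The klf9-/- ZT0 samples overlapped those of ZT-3 and lay below those of ZT+2.5. Its fall was -0.20 ± 0.062 (SE) and its rise 0.76 ± 0.062 (SE) (edgeR, adjusted p = 0.0528 and 1.63e-06).

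Ccng2 was higher in klf9-/- than in wildtype in every sample at ZT0 and at ZT+2.5, and the genotypes overlapped at ZT-3. The gene was kept for low wildtype values at ZT0, so the gap there was not tested. Wildtype ccng2 held 40.4, 43.7, 41.9 and 42.8 CPM at ZT-3, 31.5, 35.7, 38.3 and 30.9 CPM at ZT0, and 46.6, 46, 44.4 and 44 CPM at ZT+2.5. In klf9-/- ccng2 held 41.7, 50.5, 48.9 and 45.7 CPM at ZT-3, 44.1, 41.1, 42.2 and 41.8 CPM at ZT0, and 57.8, 51.3, 50.6 and 55.2 CPM at ZT+2.5. Only replicate 1 of klf9-/- ZT-3 lay within the ZT0 range, and all 4 of ZT+2.5 lay above it. The klf9-/- difference at ZT0 was -0.26 ± 0.053 (SE) (edgeR, adjusted p = 0.00834), and the step into ZT0 alone was -0.15 ± 0.060 (SE) (adjusted p = 0.146).

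Bida encodes Bid, a protein that starts apoptosis at mitochondria, and had a plain trough in both genotypes. Wildtype bida stood at 5.37, 4.96, 4.94 and 5.24 CPM at ZT-3, 3.63, 3.86, 4.56 and 4.22 CPM at ZT0, and 6.15, 5.04, 5.42 and 5.74 CPM at ZT+2.5. In klf9-/- bida stood at 4.25, 4.9, 5.0 and 4.24 CPM at ZT-3, 3.59, 3.41, 3.63 and 3.22 CPM at ZT0, and 5.15, 4.52, 5.68 and 5.25 CPM at ZT+2.5. All klf9-/- ZT0 samples lay below the other 8. The difference was -0.49 ± 0.083 (SE) (edgeR, adjusted p = 0.00217). Gsdmeb, a gasdermin of pore-forming cell death, had -0.40 ± 0.084 (SE) (adjusted p = 0.0103), while boka, of the Bcl-2 family, had -0.03 ± 0.064 (SE) (adjusted p = 0.864).

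Roles were given to members only, so the size of a role group cannot be set against all genes. The largest was ubiquitin, with 16 members of which 10 were called lower at ZT0 in klf9-/-, 6 for the fall into ZT0 and 11 for the morning rise. Over all tested members these shares were 45.7%, 24.6% and 48.6%, and over all genes 4.51%, 6.94% and 8.98%, and no role group was tested against the other members. Mkrn4, fbxo3 and spsb3a, substrate or ring-type parts of ubiquitin ligases, had klf9-/- differences of -0.33, -0.22 and -0.28 (SE 0.066, 0.043 and 0.044, log2). Their adjusted p (edgeR) was 0.00736, 0.00604 and 0.00128. Siah1 is a ring-type ligase that marks many regulators for the proteasome. Wildtype siah1 stood at 39.7, 39.9, 39 and 37.1 CPM at ZT-3, 33.6, 34, 35.5 and 35.3 CPM at ZT0, and 38, 40.3, 36.2 and 36.9 CPM at ZT+2.5. In klf9-/- siah1 stood at 40.0, 39.9, 41 and 44.4 CPM at ZT-3, 40.7, 36.8, 38 and 35.7 CPM at ZT0, and 42.2, 41, 44.7 and 40.0 CPM at ZT+2.5. Replicate 1 of klf9-/- ZT0 lay among the other times, and the groups overlapped. The difference was -0.15 ± 0.044 (SE) (edgeR, adjusted p = 0.052). The call was lost in 6 of the alternatives, among them the fit without PC1 (adjusted p = 0.218).

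Rnf11a was called at -0.12 ± 0.042 (SE) (edgeR, adjusted p = 0.0988), and lost the call in 15 of the alternatives, most of its own refits. The alternatives came to 567 refits, spread nearly evenly over the 30 genes named by rule. Trim44 had -0.06 ± 0.047 (SE) (adjusted p = 0.571) and ankib1b -0.13 ± 0.048 (SE) (adjusted p = 0.127), though the fall of ankib1b from ZT-3 to ZT0 was called (adjusted p = 0.0293). A list of 42 ubiquitin genes that held 4 of the members had 5 lower and 1 higher of 41 tested, with a median of -0.08, against -0.0076 over all genes. Of all genes tested, 4.51% were called lower and 5.58% higher.

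The glucocorticoid receptor gene nr3c1 was a member, with a narrow course. Its product is the nuclear receptor for cortisol, and klf9 is one of its targets. Wildtype nr3c1 held 74.9, 79.6, 71.3 and 78.7 CPM at ZT-3, 64.6, 67, 70.2 and 64.7 CPM at ZT0, and 74.6, 75.6, 74.7 and 75.3 CPM at ZT+2.5. In klf9-/- nr3c1 held 90.3, 82.1, 82.2 and 80.4 CPM at ZT-3, 75.1, 73.6, 77.4 and 79.5 CPM at ZT0, and 79.9, 79.1, 83.4 and 86.6 CPM at ZT+2.5. The klf9-/- samples exceeded all wildtype samples of the same time point. In CPM the klf9-/- ZT0 samples lay below those of ZT-3 and overlapped those of ZT+2.5 by 1 sample, while the rlog values of ZT0 lay below all others. The difference was -0.12 ± 0.035 (SE) (edgeR, adjusted p = 0.0542). The call was lost in 10 of the alternatives, most of this gene's refits, among them the fit without PC1 (adjusted p = 0.226).

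The receptor's target list ran the other way. Of 24 genes of the receptor and its targets, 11 were called higher at ZT0 in klf9-/- and 3 lower, with a median of 0.22. Among all genes tested, 5.58% were called higher and 4.51% lower. The higher ones held klf9 itself, the lower ones nr3c1 and the chaperone genes fkbp4 and hsp90aa1.2. The klf9 RNA, which the deletion leaves countable, was 54.4 to 74.2 CPM at ZT0 in wildtype, against 35.7 to 65.6 at ZT-3 and 15.3 to 38.3 at ZT+2.5. In klf9-/- it was 18.5 to 23.2 CPM at ZT0, 10.6 to 19.8 at ZT-3 and 4.72 to 18.7 at ZT+2.5, below wildtype in every sample at ZT-3 and ZT0.

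Among 10 transcription and chromatin members, 4 were called lower at ZT0 in klf9-/-, near the count over all members (63 of 138 tested). Of all genes 4.51% were called lower. Mxd3 pairs with Max and opposes Myc at its target genes. Wildtype mxd3 stood at 11.6, 11.5, 10.3 and 12.4 CPM at ZT-3, 7.32, 9.03, 8.53 and 8.21 CPM at ZT0, and 13.3, 12.7, 11.6 and 11.8 CPM at ZT+2.5. In klf9-/- mxd3 stood at 9.91, 11.1, 11 and 11.9 CPM at ZT-3, 9.35, 9.78, 9.21 and 7.76 CPM at ZT0, and 14.4, 11.3, 11.6 and 12.1 CPM at ZT+2.5. The klf9-/- ZT0 samples lay below the other 8. The difference was -0.39 ± 0.062 (SE) (edgeR, adjusted p = 0.00147). The histone demethylase genes kdm7aa and kdm2ab had -0.17 and -0.13 (SE 0.045 and 0.039), with an adjusted p of 0.0311 and 0.0547. The Mediator subunit genes med6 and med27 had -0.02 and 0.04 and were not called (adjusted p = 0.917 and 0.843).

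Of the 41 members with only the morning rise called in klf9-/-, tspo had the smallest adjusted p for it. Tspo is the translocator protein of the outer mitochondrial membrane, known for its part in steroid synthesis. Wildtype tspo held 15.8, 16.9, 17 and 17.3 CPM at ZT-3, 14.5, 15.5, 15.3 and 14.7 CPM at ZT0, and 33.2, 32.8, 37 and 34.2 CPM at ZT+2.5. In klf9-/- tspo held 20.8, 20.0, 21.3 and 21.3 CPM at ZT-3, 20.6, 22.9, 20.3 and 20.1 CPM at ZT0, and 43.2, 46.3, 47.6 and 40.2 CPM at ZT+2.5. The klf9-/- samples of ZT-3 and ZT0 overlapped, and those of ZT+2.5 were all higher. The step into ZT0 was 0.01 ± 0.062 (SE) (edgeR, adjusted p = 0.968), and the step to ZT+2.5 was 1.11 ± 0.062 (SE), a 2.15-fold rise (adjusted p = 3.11e-08). Against the mean of both other times, ZT0 was called lower (-0.55 ± 0.054 (SE), adjusted p = 3.28e-05).

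Ptgdsb.1 encodes a lipocalin-type prostaglandin D synthase and rose in the morning in like manner. Wildtype ptgdsb.1 stood at 195, 178, 201 and 213 CPM at ZT-3, 162, 176, 172 and 173 CPM at ZT0, and 373, 329, 389 and 427 CPM at ZT+2.5. In klf9-/- ptgdsb.1 stood at 237, 259, 227 and 205 CPM at ZT-3, 254, 249, 222 and 252 CPM at ZT0, and 479, 364, 447 and 475 CPM at ZT+2.5. In both genotypes ZT+2.5 was far above the other times, and in wildtype the gap between ZT-3 and ZT0 was narrow. The klf9-/- step into ZT0 was 0.07 ± 0.086 (SE) (edgeR, adjusted p = 0.666) and the rise 0.86 ± 0.088 (SE) (adjusted p = 1.95e-05). With opn6b, the mitochondrial carrier gene slc25a55a and the ubiquitin ligase gene rnf169, these were the 5 members called lower at ZT0 whose klf9-/- rlog mean at ZT0 was not below both other means.

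Dnajc28, of the DnaJ co-chaperone family, also rose mainly after lights on. Wildtype dnajc28 stood at 4.57, 4.8, 5.35 and 5.14 CPM at ZT-3, 3.89, 4.25, 4.44 and 4.55 CPM at ZT0, and 7.96, 6.76, 7.95 and 6.01 CPM at ZT+2.5. In klf9-/- dnajc28 stood at 5.16, 4.6, 5.07 and 4.93 CPM at ZT-3, 4.88, 3.92, 4.04 and 3.9 CPM at ZT0, and 8.23, 7.77, 8.64 and 7.23 CPM at ZT+2.5. The ZT-3 and ZT0 samples overlapped in klf9-/- through replicate 1 of ZT0. Its fall was -0.24 ± 0.090 (SE) (edgeR, adjusted p = 0.112) and its rise 0.95 ± 0.088 (SE) (adjusted p = 6.29e-06).

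Ston2, a stonin that sorts proteins of synaptic vesicles for endocytosis, had an even course. Wildtype ston2 held 69.6, 62.2, 57.9 and 64.6 CPM at ZT-3, 54, 52.2, 56.4 and 52.1 CPM at ZT0, and 64.7, 58.5, 58.8 and 61 CPM at ZT+2.5. In klf9-/- ston2 held 59.7, 58.2, 62 and 62.2 CPM at ZT-3, 50.3, 49.8, 50.2 and 49.3 CPM at ZT0, and 60.9, 56.9, 62.3 and 60.8 CPM at ZT+2.5. The 4 klf9-/- ZT0 samples lay close together and below the other 8. Its fall of -0.28 ± 0.042 (SE) and rise of 0.29 ± 0.042 (SE) were nearly equal in size (edgeR, adjusted p = 0.000503 and 0.000388).

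Cdh26.2 and rabgap1l2 are membrane and trafficking genes of the highest ranks. Cdh26.2 encodes a cadherin, an adhesion protein. Wildtype cdh26.2 stood at 4.79, 5.53, 4.82 and 6.04 CPM at ZT-3, 3.37, 3.8, 3.71 and 3.0 CPM at ZT0, and 6.69, 6.52, 6.94 and 6.35 CPM at ZT+2.5. In klf9-/- cdh26.2 stood at 6.0, 4.57, 4.81 and 4.29 CPM at ZT-3, 3.34, 4.41, 4.06 and 4.23 CPM at ZT0, and 6.85, 5.74, 4.95 and 7.18 CPM at ZT+2.5. The klf9-/- samples of ZT-3 overlapped those of ZT0 and of ZT+2.5, and those of ZT+2.5 lay above those of ZT0. The difference was -0.46 ± 0.12 (SE) (edgeR, adjusted p = 0.0303), and the call was lost without klf9-/- ZT0 replicate 1 (adjusted p = 0.143) and without replicate 4 (adjusted p = 0.103).

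Rabgap1l2 encodes a GTPase-activating protein for Rab proteins of vesicle transport. Wildtype rabgap1l2 held 15.1, 17.8, 17.5 and 20.0 CPM at ZT-3, 11.7, 13.4, 13.8 and 10.7 CPM at ZT0, and 15.2, 15.3, 18.7 and 19.4 CPM at ZT+2.5. In klf9-/- rabgap1l2 held 15.9, 19.4, 16.9 and 14.1 CPM at ZT-3, 12.2, 12.8, 14.8 and 14.3 CPM at ZT0, and 18.4, 17.5, 19.7 and 17.6 CPM at ZT+2.5. The klf9-/- ZT0 samples overlapped ZT-3 through 1 sample and lay below ZT+2.5. The difference was -0.36 ± 0.069 (SE) (edgeR, adjusted p = 0.00482).

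Members of nutrient sensing, autophagy and the lysosome numbered 7, all with a negative klf9-/- rlog difference, and 2 were called. Over all members 63 of 138 tested were called, and over all genes 4.51%. Zfyve1, a protein of the membranes where autophagosomes form, had -0.22 ± 0.068 (SE) (edgeR, adjusted p = 0.0659), and lost the call in 8 of the alternatives. Wdfy2, an endosome protein, had -0.25 ± 0.052 (SE) (adjusted p = 0.00918). Nprl2 and nprl3, both parts of the GATOR1 complex that restrains mTORC1 when amino acids are scarce, had -0.11 and -0.03 (SE 0.053 and 0.060) and were not called (adjusted p = 0.274 and 0.841).

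The wider lists of these pathways had calls in both directions in klf9-/-. Over all genes tested, 4.51% were called lower at ZT0 and 5.58% higher. Of 46 tested genes of amino acid and energy sensing by mTORC1, 6 were lower at ZT0 and 2 higher, with a median of -0.04. Of 46 autophagy genes, 8 were lower and 2 higher, with a median of -0.03. FoxO factors and targets, which hold ccng2, had 8 lower and 4 higher of 40, with a median of -0.09. The p53 target and apoptosis list, which also holds ccng2, had 4 lower and 2 higher of 26, with a median of -0.04.

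Of 7 members placed with mitochondria and lipid metabolism, 3 were called lower at ZT0, 0 for the fall into ZT0 and 4 for the morning rise. Over the 138 tested members these counts were 63, 34 and 67, and over all genes the shares were 4.51%, 6.94% and 8.98%. The mitochondrial carrier gene slc25a55a was given no role and is not among the 7. Of 5 members of RNA export, decay and translation, 2 were called lower at ZT0. Xpo1b, a called one, encodes a nuclear export receptor and had -0.20 ± 0.036 (SE) (edgeR, adjusted p = 0.00424). Fam167aa, of unclear function, had -0.77 ± 0.12 (SE) (adjusted p = 0.00133).

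Of the 47 members with the highest wildtype scores, 32 were called lower at ZT0 in klf9-/-, and their median klf9-/- rlog difference was -0.15. Of the 47 with the lowest scores, 10 of the 44 tested were called, with a median of -0.05. Of the 30 members known only by clone or locus names, 27 were tested and 9 called, and of the 111 named genes 54 were called. Among all genes tested, 4.51% were called lower, a smaller share than in each of these groups.

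**Figure D5:**
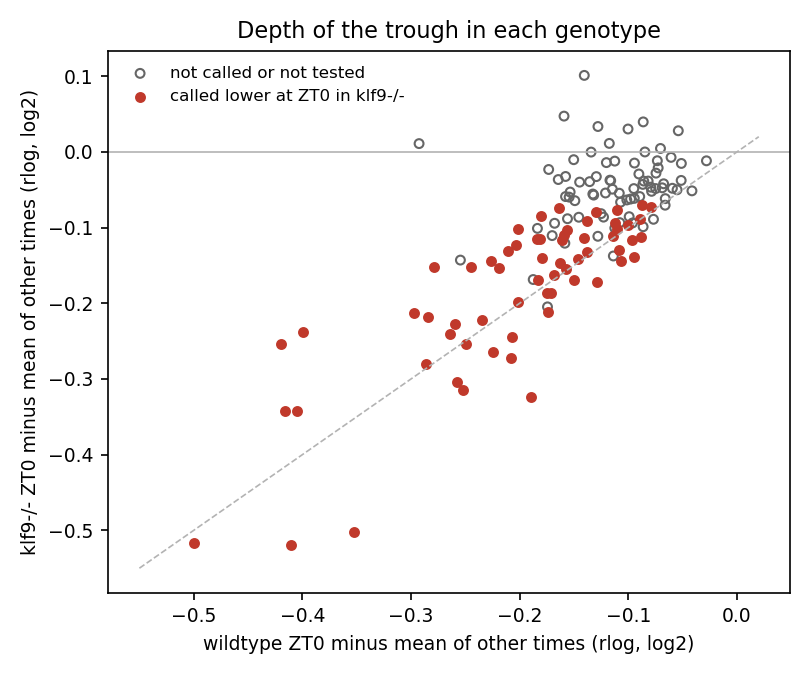
Difference of ZT0 from the mean of ZT-3 and ZT+2.5 on the rlog scale (log2) in wildtype (x axis) and klf9-/- (y axis), 1 point per member. Filled points are the 63 genes called lower at ZT0 in klf9-/- and the dashed line marks equal differences. The wildtype values are all negative by the rule, while 132 klf9-/- values are below 0, and guca1g, at -0.29 in wildtype and 0.01 in klf9-/-, stands apart on the upper left.

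The 6 highest differences of ZT0 from the mean of the other times in klf9-/- were positive, and none was called. They were 0.37 ± 0.32 (SE) for a gene known by a clone name, 0.34 ± 0.26 (SE) for zgc:171220 and 0.30 ± 0.24 (SE) for poc1a, a centriole gene. Shisal1b, med27 and CU915827.1 had 0.04, 0.04 and 0.04 (SE 0.095, 0.068 and 0.238). The adjusted p (edgeR) of these 6 genes was between 0.538 and 0.961.

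The edge of the set was set by the separation of wildtype samples and not by the score. The narrowest gaps between the highest ZT0 value and the lowest other value were 3.15e-05 in si:dkey-50i6.5, 0.00035 in med6 and 0.00047 in znf740b on the rlog scale. The lowest scores were 0.02 in si:dkey-85k7.11, 0.03 in spg7 and 0.04 in spopla. Among genes outside with a score above the members' median, rfng, mxd4 and plcxd2 lay closest to separation. They overlapped by 0.00048, 0.0012 and 0.0016. Higher scores without separation were found in hbae5 (0.59), AL935115.1 (0.53) and nmnat1-rbp7a (0.36).

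Total expected counts were 41444609 to 64452247 per sample, with medians by group of 43693188 to 60191916. The mean squared difference between replicates of a group was 7.15 to 85.7 times what counting noise gives (36 pairs). Marker lists of liver, pancreas, intestine, neurons, photoreceptors, lens, epidermis, muscle and erythroid cells were all detected in the whole larvae.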

How the data were processed

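RNA was sequenced from 24 pools of 6 whole larvae as single-end reads. The authors trimmed reads with Trim Galore 0.6.5, aligned them with STAR 2.7.5c and estimated an expected count per gene with RSEM 1.3.3 against Ensembl's zebrafish annotation, and summed IDs that share a symbol. The deposited expected counts of 31242 genes are not normalized, and 18.0% of the values were not whole. The choice of members used the authors' second deposited table, log2 values regularized with DESeq2 1.30.1 (rlog) for 25362 genes. Their own comparison tables hold log2 fold changes and p-values between genotypes and were not used.

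Counts were rounded, filtered with filterByExpr by time point and scaled by TMM in edgeR 4.0.16 (R 4.3.3, limma 3.58.1, DESeq2 1.42.0 as alternative). The quasi-likelihood test with robust estimates was fitted to all genes of the 12 klf9-/- samples, with PC1 of the Z-transformed rlog values of all 24 samples as a covariate, as the study's methods did for PC1. Calls were made at a Benjamini-Hochberg adjusted p of 0.1. Printed CPM values use the TMM factors and are not adjusted for PC1. The scripts were tested on simulated counts. RSEM may split reads between near-identical copies, so single members of gene families are less certain.

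The members and gene lists were chosen with earlier results of these data known. Genes named are the 12 highest-scoring members with gene names, the 6 with the smallest p for a klf9-/- trough, the 6 with the highest klf9-/- ZT0 level, members of the gene lists, and those next to the rule's edge. All other members named, and the role groups, were chosen after their values were seen. The replicate numbers were checked as pairs: deviations of same-numbered klf9-/- samples correlated at -0.65 to 0.60, above 0.1 in 3 of 12 pairs. For ZT0 with ZT+2.5 the correlations were 0.58, 0.08, 0.32 and 0.60 in replicates 1 to 4, and every pair with ZT-3 was negative. The numbers thus carried variation whose sign differed between time points, and they were not used as pairs. Alternatives were another scaling, tool, filter, covariate, sample set and threshold, and leaving out each sample in turn. Promoter and other sequences were not analysed here.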

Additional observations from a re-analysis of the deposited data

Results flagged for a closer look

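The spread of 4 samples was examined for the members whose values are printed and for klf9, 132 groups in all, by the gap of the highest or lowest sample to its neighbour relative to the group's range (Dixon's limit for 4 samples). The gap passed the limit in 6 groups, and chance flags about 1 in 20. In klf9-/- at ZT0, replicate 1 was high for abrab at 7.80 CPM, against 4.45 to 4.84 in the others, and for dnajc28 at 4.88 CPM, against 3.90 to 4.04. Replicate 2 of that group was high for tspo at 22.9 CPM, against 20.1 to 20.6, and replicate 3 was low for ptgdsb.1 at 222 CPM, against 249 to 254. In klf9-/- at ZT-3, replicate 4 was high for smtnb at 35.8 CPM, against 30.9 to 31.5. In wildtype at ZT-3, replicate 3 was low for ypel3 at 16.4 CPM, against 17.3 to 17.4.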

How the results depend on the processing

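The count of members called lower at ZT0 in klf9-/- (63) was 10 with a log2 fold change of at least 0.5 (0.606% of all genes), 35 without PC1 (1.71%), and 38 to 68 with 1 sample left out (2.2% to 5.04%). The count for the fall into ZT0 (34) was 6 (1.06%), 16 (2.57%) and 25 to 38 (4.56% to 8.14%) under the same settings. That for the morning rise (67) was 20 (2.26%), 53 (4.65%) and 52 to 77 (5.57% to 9.385%). With the replicate number as a block in place of PC1, the counts were 20, 8 and 33 (0.734%, 1.29% and 2.74% of all genes). The numbers were not used as pairs in the main fit, since same-numbered samples correlated with differing signs between time points. With no filter on low counts, DESeq2's size factors, DESeq2, PC1 of the klf9-/- samples or all 24 samples in the fit, the counts were 51 to 69, 31 to 43 and 63 to 72. Over all genes the shares were then 2.98% to 4.615%, 5.04% to 7.28% and 6.005% to 9.24%. None of these fits called a member in the opposite direction. The rule chose 76 members again with PC1 regressed out, 131 on log2 CPM and 64 to 132 with 1 wildtype sample left out. Its limit of 150 genes lowers these numbers by construction when more genes separate. Of the members, 31 had all klf9-/- ZT0 values below the others with PC1 regressed out (1.28% of all genes), 15 on log2 CPM (0.568%) and 17 to 29 with 1 sample left out (0.674% to 1.27%). The 30 genes named by rule stayed on the same side of the threshold in 515 of 567 refits, lost the call in 50 and gained it in 2. A change of sign where neither fit was called counted as staying. Of the 50, 15 were of rnf11a, 10 of nr3c1, 8 of zfyve1 and 6 of siah1. The cause was not tested. The 3 members not tested had too few counts for the filter.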

Other observations

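Gene lists that held none of the members were also followed in klf9-/- at ZT0 against the mean of the other times, with edgeR calls at an adjusted p of 0.1. Over all genes tested, 4.51% were called lower and 5.58% higher. Heat shock and chaperone genes had 11 lower and 1 higher of 23 tested, with a median log2 difference of -0.18. The NF-kB and innate immune list had 5 lower and 1 higher of 30, with a median of -0.08. Of Yap, Tead and matricellular targets, 5 were lower and 2 higher of 24. Glycolysis genes had 2 lower and 0 higher of 33, and genes of glucose and fatty acid transport and use had 1 lower and 2 higher of 31.

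Markers of other larval cell types had few calls in the same contrast, but several lists lay to one side of 0, as large as the members' median of -0.17. All 10 exocrine pancreas markers tested were below 0 (median -0.24), as were all 13 lens markers (median -0.19), with 0 calls in each. Of 11 liver markers 0 were below 0 (median 0.20) and 1 was called higher, and of 8 intestine markers 1 was below 0 (median 0.17), with 0 calls. Mature neurons (3 of 12 below 0), epidermis (8 of 12) and erythroid cells (7 of 9) had 0 calls and medians of 0.02, -0.02 and -0.02. The part of such cell types in the members' course was not tested.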
